A study of Mus musculus with 6 samples.

Results

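The transcripts described here are 10 genes of the core cell cycle in mouse embryonic stem (mES) cells: the D cyclins *Ccnd1*, *Ccnd2* and *Ccnd3*, the E cyclins *Ccne1* and *Ccne2*, cyclin A2 (*Ccna2*), cyclin B1 (*Ccnb1*), the cyclin-dependent kinases *Cdk1* and *Cdk2*, and the kinase inhibitor p27 (*Cdkn1b*). They were chosen by name. All 10 were among the 16668 genes listed, and 9 of the 10 passed the filter on low values that the tests required, a mean of at least 0.5 RPKM. *Ccnd2* did not pass and is given by its levels alone.

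RNA-seq was performed on E14 mES cells of strain 129/Ola, a feeder-independent line, grown in N2B27 medium with 1 μM PD0325901 (an inhibitor of MEK), 3 μM CHIR99021 (an inhibitor of GSK3) and 1000 U/ml LIF, which all groups shared. The labels name 3 groups of 2 libraries: control (control siRNA), Ring1B-KD (siRNA against Ring1B, the product of *Rnf2*) and Dzip3-KD (siRNA against Dzip3). Both targets ubiquitylate histone H2A. All cells are of 1 line and the knockdowns are transient. The deposited files also carry a number and a condition word, and for 4 of the 6 libraries this word was not that of the label. Files 1, 2 and 3 hold the libraries labelled control 1 (word control), control 2 (word Ring1BKD) and Ring1B-KD 1 (word Dzip3KD). Files 4, 5 and 6 hold those labelled Ring1B-KD 2 (word control), Dzip3-KD 1 (word Ring1BKD) and Dzip3-KD 2 (word Dzip3KD). Files 1 to 3 and files 4 to 6 are called the first and the second set, and what these sets stand for is not given in the sources used here. Levels below are listed in the order of the file numbers.

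Cyclins bind and activate cyclin-dependent kinases, and each acts at its own stage of the cycle. D cyclins with Cdk4 or Cdk6 act in G1, E cyclins with Cdk2 at the entry into S phase, cyclin A2 with Cdk2 and Cdk1 through S and G2 phase, and cyclin B1 with Cdk1 at mitosis, while p27 restrains the complexes of G1. Mouse ES cells are known for a rapid cycle with a short G1 phase. In RNA from whole cultures, fewer cells at a stage of the cycle and less transcript per cell cannot be told apart.

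Levels are in RPKM, the number of reads divided by the length of the exons and by the depth of the library. As recovered from the RPKM steps, the libraries held 3015349 to 3583612 mapped reads, so that 3 reads on 2 kb of transcript gave 0.419 to 0.497 RPKM. All 8 of 8 ES cell markers were expressed, at 40.0 to 592 RPKM. Values were found for 4 of 6 fibroblast markers, which summed to 1.18 to 3.10 RPKM, with *Col1a1*, *Col1a2* and *Lum* at 0 in at least 1 library. The remaining one, *Thy1*, was found in each library, at 0.765 to 2.73 RPKM, and made up most of the sum. *Rnf2* was at 30.6, 20.4, 26.8, 28.8, 19.4 and 28.2 RPKM, so its lowest levels were in files 2 and 5, which carry the word Ring1BKD and the labels control 2 and Dzip3-KD 1. *Dzip3* was at 2.24, 2.68, 1.18, 1.89, 1.70 and 1.31 RPKM, with its lowest levels in files 3 and 6, which carry the word Dzip3KD and the labels Ring1B-KD 1 and Dzip3-KD 2. No library was assigned to a group from these levels.

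The order of the levels was first examined. By mean RPKM over the 6 libraries it ran *Ccnd3*, *Ccna2*, *Ccnb1*, *Cdk2*, *Cdkn1b*, *Ccne1*, *Ccnd1*, *Cdk1*, *Ccne2* and *Ccnd2*, and the order by median was identical. Some ranks were held in each of the 6 libraries: *Ccnd3* was first, *Ccna2* second, *Cdk1* eighth, *Ccne2* ninth and *Ccnd2* last. *Ccna2*, at 42.4 ± 6.05 RPKM (SD, n = 6), stood above 97.1% of all genes listed, whereas *Ccne2*, at 1.53 ± 0.446 RPKM (SD, n = 6), stood above 44.2%. Within this order, 3 gaps were wider than the spread between libraries, so that the ranges did not overlap: *Cdk2* lay above *Cdkn1b*, *Cdk1* above *Ccne2* by 6.81 times, and *Ccne2* above *Ccnd2* by 4.94 times. The neighbours *Ccnb1* and *Cdk2* did not differ beyond their spread, with *Ccnb1* the higher in 4 of 6 libraries. Nor did *Cdkn1b*, *Ccne1* and *Ccnd1*, whose means were 15.2 ± 1.73, 15.1 ± 2.71 and 14.9 ± 3.82 RPKM (SD, n = 6).

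RPKM is a level per length, and the exon length that the authors used decides it. The length recovered from the values was 2405 bp for *Cdkn1b*, against 4552 bp for its longest annotated transcript, and 2432 bp for *Cdk2*, which is an annotated length. The rank of *Cdkn1b* therefore rests on the shorter gene model. The lengths recovered for *Ccnb1*, *Ccnd1*, *Ccnd2*, *Ccne1* and *Cdk1* also matched no annotated transcript. Those of *Ccnd1* (3796 bp) and *Ccnd2* (5771 bp) exceeded the longest annotated transcripts, of 3740 and 5701 bp. Over all genes with a recovered length and an annotation, only 23.3% of recovered lengths matched an annotated transcript. For *Ccna2*, *Ccnd3* and *Ccne2* no whole length was recovered, and their reads are given only approximately, at the longest annotated transcript. All positions of genes given below are from the GENCODE annotation of mm9.

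**Figure D1:**
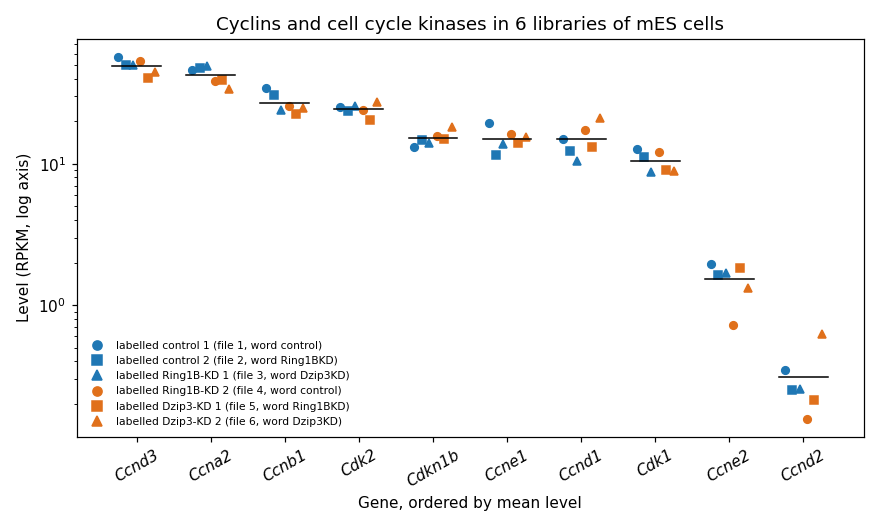
Level in RPKM (log axis) of the 10 genes in the 6 libraries, ordered by mean level from left to right. Colours mark files 1 to 3 (blue) and 4 to 6 (orange), shapes mark the condition word of the file, and the bar is the mean of the 6 libraries. *Ccnd3* and *Ccna2* lie highest and *Ccne2* and *Ccnd2* lie apart at the bottom.

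Among the D cyclins, which drive the phosphorylation of Rb in G1, *Ccnd3* (chromosome 17, 47642000 to 47736632, plus strand) held most of the signal. It was at 57.0, 49.8 and 49.7 RPKM in files 1 to 3 and at 53.3, 40.6 and 44.6 RPKM in files 4 to 6, from approximately 280 to 372 reads. The highest library was the one labelled control 1, the lowest was Dzip3-KD 1, and the ranges of the sets overlapped. The annotation holds a pseudogene of *Ccnd3*, and the authors counted only reads that mapped uniquely.

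*Ccnd1* (chromosome 7, 152115836 to 152125774, minus strand), a cyclin known to respond to growth factor signals, had the largest SD of log2(RPKM + 1) of the 9 cell cycle genes tested, 0.34 over the 6 libraries. Its level was 15.0, 12.3 and 10.5 RPKM in files 1 to 3 and 17.3, 13.2 and 21.1 RPKM in files 4 to 6, from 135 to 287 reads, with a coefficient of variation of 25.6%, below the 29.2% of *Ccne2*. The library labelled Dzip3-KD 2 was the highest and the one labelled Ring1B-KD 1 the lowest, and the sets overlapped only through file 5, which lay below file 1. *Ccnd2* (chromosome 6, 127075797 to 127101066, minus strand) was at 0.345, 0.253, 0.257, 0.157, 0.212 and 0.629 RPKM, from 3 to 13 reads. Its highest level was in the library labelled Dzip3-KD 2, and it was too low to be tested.

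The composition of the D cyclins was then calculated. Their summed level was 54.1 to 72.4 RPKM, and the sets overlapped in it. *Ccnd1* made up 20.8%, 19.7% and 17.4% of this sum in files 1 to 3, and 24.4%, 24.5% and 31.8% in files 4 to 6. The ranges of the sets did not overlap, with means of 19.3% and 26.9%, and the mean share of *Ccnd3* was 80.3% and 72.6%. *Ccnd2* gave between 0.222% and 0.947%. These shares were chosen after the levels had been seen, and with 3 libraries against 3 an exact permutation test cannot go below 0.1.

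The E cyclins, which bind Cdk2 at the entry into S phase, were unequal. *Ccne1* (chromosome 7, 38883003 to 38892553, minus strand) was at 19.5, 11.5, 13.8, 16.2, 14.1 and 15.4 RPKM, from 77 to 115 reads. Its highest and its lowest level were both in libraries labelled control. *Ccne2* (chromosome 4, 11118498 to 11131926, plus strand) was at 1.95, 1.63, 1.70, 0.728, 1.83 and 1.32 RPKM, from only about 7 to 18 reads, and the library labelled Ring1B-KD 2 was the lowest. *Ccne1* thus provided 87.6% to 95.7% of the E cyclin signal.

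Cyclin A2, which acts with both kinases, was second to *Ccnd3* in each library. *Ccna2* (chromosome 3, 36463788 to 36471072, minus strand) was at 46.3, 47.6 and 49.0 RPKM in files 1 to 3 and at 38.8, 38.9 and 33.9 RPKM in files 4 to 6, from approximately 361 to 490 reads. Each library of the second set lay below each of the first. *Ccnb1* (chromosome 13, 101548605 to 101556525, minus strand), the cyclin of mitosis, was at 34.5, 30.5, 23.9, 25.5, 22.6 and 24.7 RPKM, from 171 to 242 reads. Both libraries labelled control were the highest for *Ccnb1*, and the other 4 lay together.

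Of the kinases, *Cdk2* (chromosome 10, 128134995 to 128142107, minus strand) was the steadiest of the 10 genes. It was at 25.4, 23.5, 25.7, 24.0, 20.5 and 27.3 RPKM, from 163 to 238 reads, with a coefficient of variation of 9.55%. *Cdk1* (chromosome 10, 68799383 to 68815686, minus strand), the mitotic kinase, was at 12.6, 11.1, 8.71, 12.1, 8.99 and 8.88 RPKM, from 84 to 114 reads. *Cdk2* exceeded *Cdk1* in each library, by 1.99 to 3.08 times. The level of *Ccnb1* was 2.11 to 2.78 times that of its partner *Cdk1*, and that of *Ccna2* was 1.34 to 2.05 times that of *Ccnb1*.

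The inhibitor *Cdkn1b* (chromosome 6, 134870419 to 134875531, plus strand) was at 13.2, 14.8 and 14.0 RPKM in files 1 to 3 and at 15.9, 14.9 and 18.2 RPKM in files 4 to 6, from 96 to 157 reads. Each library of the second set lay above each of the first, although file 5 exceeded file 2 by little.

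The promoters of *Ccnb1*, *Cdk1* and *Cdk2* are printed, because the first pair encodes 1 mitotic complex and *Cdk2* is the kinase set against *Cdk1* above. They are RefSeq windows on GRCm38.p6, another build than that of the levels, from 250 bases before to 50 bases after the start of the transcript. They lie at chr13:100786437-100786736, chr10:69352863-69353162 and chr10:128705002-128705301, all on the minus strand, and are written 5′ to 3′. Capitals mark matches on either strand to a CCAAT box (CCAAT), to the cell cycle homology region (CHR, TTTGAA) or to an E2F motif (TTTCCCGC, TTTCGCGC, TTTGCCGC or TTTGGCGC).
Ccnb1: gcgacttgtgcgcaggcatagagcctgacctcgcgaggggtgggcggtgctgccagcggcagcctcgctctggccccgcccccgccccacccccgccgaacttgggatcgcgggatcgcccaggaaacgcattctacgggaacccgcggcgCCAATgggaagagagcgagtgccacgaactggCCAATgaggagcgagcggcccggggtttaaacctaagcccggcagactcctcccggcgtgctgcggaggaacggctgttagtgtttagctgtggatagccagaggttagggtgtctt
Cdk1: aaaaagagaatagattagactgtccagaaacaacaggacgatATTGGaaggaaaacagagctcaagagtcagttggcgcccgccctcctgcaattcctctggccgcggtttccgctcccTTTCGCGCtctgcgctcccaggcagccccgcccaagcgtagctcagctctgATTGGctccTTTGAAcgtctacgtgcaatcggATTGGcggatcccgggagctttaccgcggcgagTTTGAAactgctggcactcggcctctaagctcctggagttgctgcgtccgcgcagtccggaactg
Cdk2: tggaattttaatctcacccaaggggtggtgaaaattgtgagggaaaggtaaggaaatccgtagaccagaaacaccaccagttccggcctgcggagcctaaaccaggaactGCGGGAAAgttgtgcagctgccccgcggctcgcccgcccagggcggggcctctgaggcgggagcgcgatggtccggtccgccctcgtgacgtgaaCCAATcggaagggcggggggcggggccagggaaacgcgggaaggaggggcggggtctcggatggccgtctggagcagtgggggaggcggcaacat
The window of *Ccnb1* held 2 CCAAT boxes, which began at positions -99 and -67 from the start. That of *Cdk1* held 3 CCAAT boxes (-208, -80 and -48), 2 CHR (-71 and -15) and 1 E2F motif (-131). *Cdk2* had 1 CCAAT box (-45) and 1 E2F motif (-140). Of all 32851 windows of this length, 37.4% held a CCAAT box, 17.9% a CHR and 2.26% an E2F motif. *Cdkn1b* had 3 CCAAT boxes, *Ccnd3* had 1 in 1 of its 2 windows, and that of *Ccne1* had no match to these letters. There was no entry for *Ccna2*, *Ccnd1*, *Ccnd2* or *Ccne2*. A match is a description of the letters and not a site shown to be bound.

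To compare files 4 to 6 with files 1 to 3, limma was applied to log2(RPKM + 1) of 11538 genes with the condition word as a term. Of all genes tested, 879 (7.62%) had an adjusted p under 0.05, with 455 higher and 424 lower in the second set, or 565 and 342 after scaling to a common 75th percentile. None of the 9 cell cycle genes tested was among them. The unadjusted p was under 0.05 for 2 of 9, against 26.5% of all genes: *Ccna2* was the lower and *Ccnd1* the higher in the second set. The second set consists of 1 library labelled Ring1B-KD and both labelled Dzip3-KD, so this comparison overlaps in part with that of the labels.

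*Ccna2* was at 47.6 ± 1.38 RPKM in the first set and 37.2 ± 2.82 RPKM in the second (SD, n = 3 each). The log2 difference on the log2(RPKM + 1) scale was -0.35 (SE 0.11, limma adjusted p 0.0897). Alone among the 9 genes, it had all 3 libraries of the second set below the first, and 15.5% of all genes behaved in this way. The difference stayed between -0.40 and -0.27 when libraries were left out in turn, and the adjusted p lay between 0.0981 and 0.230 in the alternatives run, which did not include voom for this gene.

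*Ccnd1* was at 12.6 ± 2.26 RPKM in the first set and 17.2 ± 3.94 RPKM in the second (SD, n = 3 each). The log2 difference was 0.41 (SE 0.17, limma adjusted p 0.180). It passed the threshold with voom on the recovered reads, at 0.44 and an adjusted p of 0.0381, and it was 0.14 without the library labelled Ring1B-KD 1 or without Dzip3-KD 2. Between the sets, voom called 1711 of the 10633 genes on which it was run. The ratio of *Ccnd1* to *Ccna2* was 0.215 to 0.325 in the first set and 0.340 to 0.622 in the second. These ranges did not overlap, in a ratio chosen after the levels had been seen.

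*Cdkn1b* was at 14.0 ± 0.776 and 16.3 ± 1.71 RPKM (SD, n = 3 each), a log2 difference of 0.20 (SE 0.12, limma adjusted p 0.338). It alone had all of the second set above the first, as in 13.1% of all genes. *Ccnb1* was at 29.6 ± 5.34 and 24.3 ± 1.49 RPKM (SD, n = 3 each), a log2 difference of -0.26 (SE 0.13, limma adjusted p 0.238). The 5 remaining genes, *Ccnd3*, *Ccne2*, *Cdk1*, *Cdk2* and *Ccne1*, had log2 differences of -0.30 to 0.06 with limma adjusted p from 0.315 to 0.826. In all, 6 of 9 genes were below 0, against 55.3% of all genes tested, and their median was -0.10, against -0.04.

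The summed levels of markers of other cell types were compared between the sets, whose ranges overlapped for all but those of primitive endoderm. The 5 neural markers, mostly *Tubb3*, summed to 19.0 to 27.4 RPKM in the first set and 26.0 to 37.9 RPKM in the second. Of 5 trophectoderm markers, 4 were listed, with sums of 9.23 to 10.7 and 10.3 to 16.9 RPKM, mostly *Tfap2c*. The 4 fibroblast markers summed to 1.18 to 3.10 and 2.16 to 2.30 RPKM, and the 5 of primitive endoderm to 0.964 to 1.34 and 0.654 to 0.896 RPKM. No primitive endoderm marker exceeded 0.713 RPKM in any library, so these rest on few reads. Taken singly, *Sox1*, *Nes*, *Map2* and *Tfap2c* were higher in each library of the second set than in any of the first. *Cdx2*, *Gata6* and *Pdgfra* were lower in each, and the other listed markers of these cell types overlapped. The 8 ES cell markers summed to 1380 to 1787 RPKM in the first set and 1585 to 1805 RPKM in the second. Of these, *Klf4*, *Esrrb* and *Tfcp2l1* were lower in each library of the second set, and *Nanog* and *Dppa5a* were higher in each. *Pou5f1*, *Sox2* and *Zfp42* overlapped. The part of cells of other types, or of a shift in ES cell state, in the differences above was not tested.

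**Figure D2:**
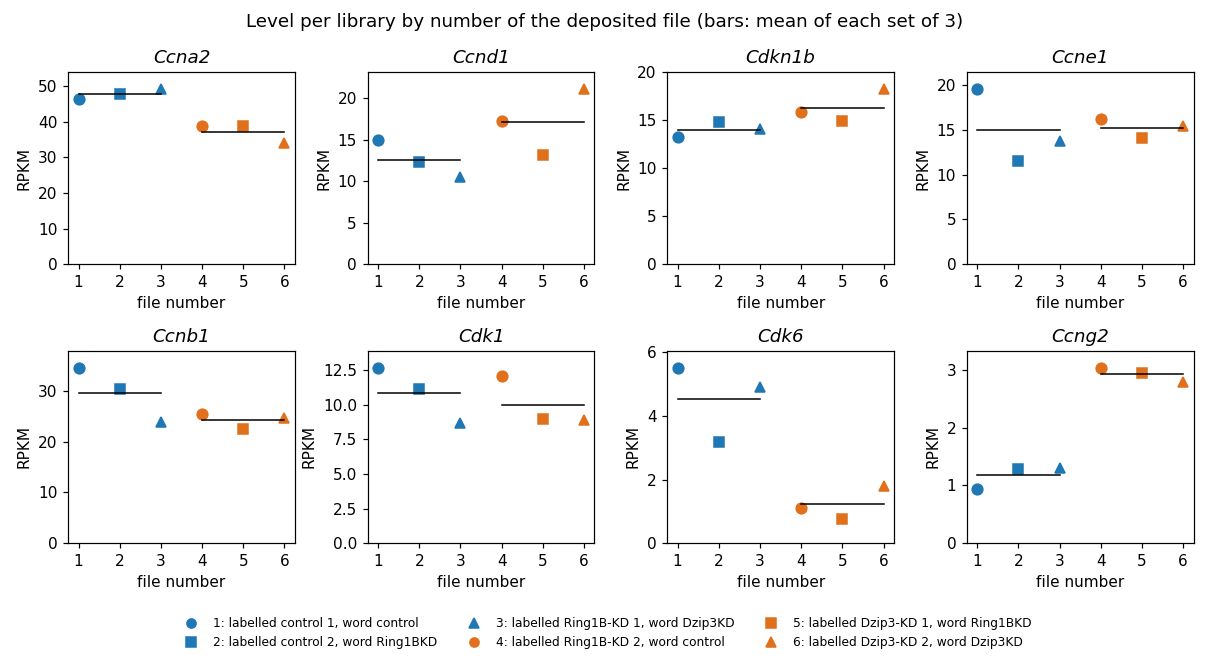
RPKM by number of the deposited file (linear axes from 0) for 6 of the genes and for *Cdk6* and *Ccng2*; colours mark the 2 sets, shapes the condition word, and bars the mean of each set of 3. *Ccna2* averaged 47.6 and 37.2 RPKM and did not pass the test, while *Cdk6* was lower and *Ccng2* higher in each library of the second set.

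**Figure D3:**
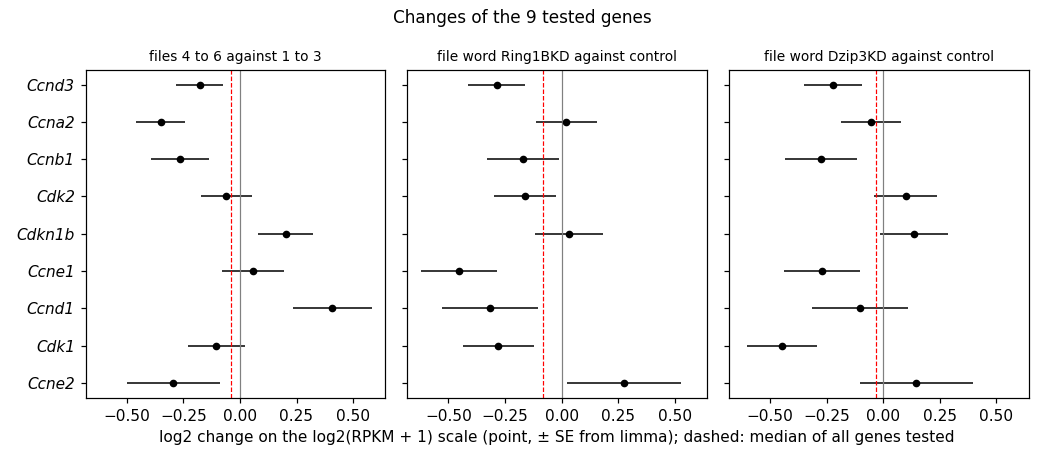
Log2 difference with its SE from limma for the 9 genes tested, in the comparison of the file sets and in those of the condition words; the dashed line is the median of all 11538 genes. *Ccna2* and *Ccnd1* lie farthest from 0 in the first panel, on opposite sides, and *Ccne1* and *Cdk1* lie lowest in the panels of the words Ring1BKD and Dzip3KD, respectively.

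To place these genes among their partners, 141 further cell cycle genes were collected, of which 138 were tested. Between the sets, 6 of 138 had an adjusted p under 0.05, 5 lower and 1 higher, against 3.67% and 3.94% of all genes. The unadjusted p was under 0.05 for 33 lower and 7 higher, against 14.4% and 12% of all genes. Over all genes this split moved with the scaling, from 1389 higher and 1667 lower to 1656 higher and 1357 lower at a common 75th percentile. The median log2 difference was -0.13 for these genes and -0.04 for all genes.

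The largest difference was in *Cdk6*, a kinase that the D cyclins activate. *Cdk6* was at 5.50, 3.19 and 4.92 RPKM in files 1 to 3 and at 1.10, 0.744 and 1.81 RPKM in files 4 to 6, from 6 to 41 reads. The log2 difference of *Cdk6* was -1.32 (SE 0.17, limma adjusted p 0.00930), and the sets did not overlap. *Ccng2*, an atypical cyclin linked to cell cycle arrest, was at 0.931, 1.29 and 1.31 RPKM and at 3.03, 2.95 and 2.80 RPKM, from 7 to 25 reads. Its log2 difference was 0.86 (SE 0.16, limma adjusted p 0.0240).

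*Mcm7*, a subunit of the replicative helicase, was at 32.7, 28.0 and 35.6 RPKM in the first set and at 24.6, 16.2 and 24.3 RPKM in the second. Its log2 difference was -0.56 (SE 0.12, limma adjusted p 0.0290). Outside the rule for named genes, and named after their values were seen, *Mcm5* (-0.49), *Ccnf* (-0.45) and *Cdc20* (-0.46) also passed, with limma adjusted p of 0.0356, 0.0411 and 0.0429. *Cdk6* kept its call when any library was left out but not without the filter on low values (adjusted p 0.0937), whereas *Ccng2* and *Mcm7* lost theirs without any 1 of the libraries (adjusted p up to 0.0787 and 0.149). The other 3 were lost when libraries were left out, except *Mcm5* without Dzip3-KD 2.

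By list, genes of G1/S and replication licensing had the lowest median, -0.27 over 26 genes, and 10 of them were lower and 0 higher at an unadjusted p under 0.05. The 24 genes of the ubiquitin ligases had a median of -0.19 with 4 lower and 1 higher, and the 19 genes of mitosis a median of -0.11 with 6 lower and 1 higher. Other kinases and Cks subunits had a median of -0.13 over 18 genes, with 6 lower and 2 higher. The 15 other cyclins had a median of 0.05, above that of all genes, with 2 lower and 2 higher. The 7 CDK inhibitors (-0.02), 10 kinases and phosphatases acting on CDKs (-0.08) and 19 genes of Rb and E2F (-0.05) lay nearer to the median of all genes. These counts stand against 14.4% of all genes lower and 12% higher, and no list was tested as a set.

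**Figure D4:**
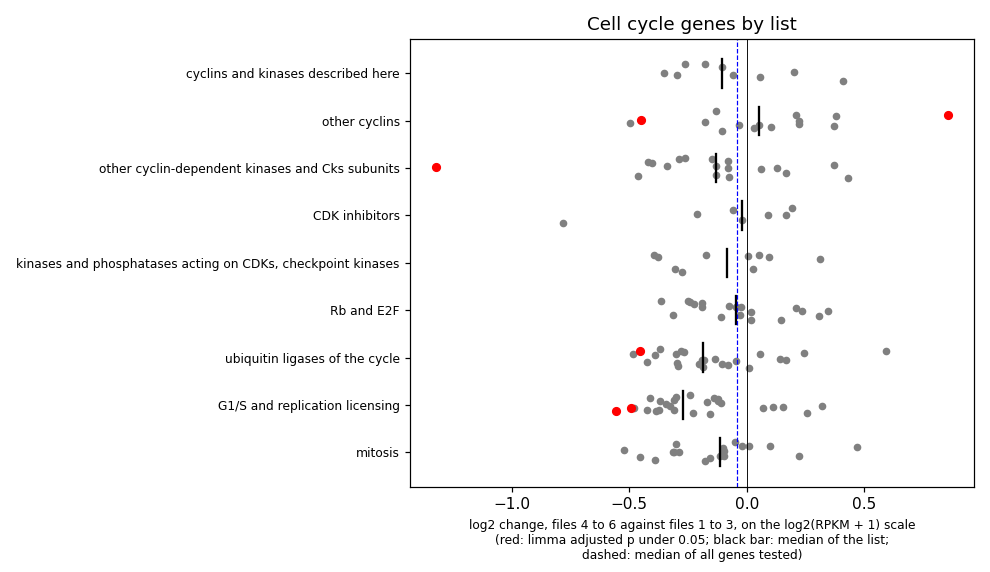
Log2 difference between files 4 to 6 and files 1 to 3 for the 9 genes and for 138 further cell cycle genes, by list (points); red points passed an adjusted p of 0.05, black bars are list medians and the dashed line is the median of all genes. *Cdk6* (-1.32) and *Ccng2* (0.86) lie farthest out.

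The condition words were next compared within the sets, which sets file 2 against file 1 and file 5 against file 4 for the word Ring1BKD. By label this compares control 2 with control 1, and Dzip3-KD 1 with Ring1B-KD 2. Of all genes, 48 (0.416%) had an adjusted p under 0.05, all higher, and 0 of the 9 cell cycle genes were among them. The same libraries with the word control serve both word comparisons, so the values of the words are not independent of each other. *Rnf2* differed by -0.55 (SE 0.13, limma adjusted p 0.232).

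With the word Ring1BKD, *Ccne1* alone among the 9 genes had an unadjusted p under 0.05, against 8.31% of all genes. It was at 11.5 against 19.5 RPKM in the first set and at 14.1 against 16.2 RPKM in the second, a log2 difference of -0.45 (SE 0.17, limma adjusted p 0.511). Without the library labelled control 1, the difference was -0.22. *Ccnd3* differed by -0.29 (limma adjusted p 0.599), *Ccnd1* by -0.32 (0.716) and *Cdk1* by -0.28 (0.654). With libraries left out in turn, the difference of *Ccnd1* ran from -0.55 without control 2 to -0.084 without Dzip3-KD 1, and was -0.15 without control 1. Without these same libraries, that of *Cdk1* was -0.41, -0.15 and -0.31. In 6 of 9 genes, *Ccnb1*, *Ccnd1*, *Ccnd3*, *Ccne1*, *Cdk1* and *Cdk2*, the library with this word was the lower in both sets, as in 40.6% of all genes. *Ccna2* was almost level, with ratios of RPKM + 1 of 1.03 and 1.00, and *Ccne2* and *Cdkn1b* differed in opposite directions in the sets. The median was -0.17 for the 9 genes and -0.08 for all genes.

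Of the 138 further genes, 0 passed the adjusted threshold with the word Ring1BKD, and 12, all lower, had an unadjusted p under 0.05, against 5.2% of all genes lower. Over all genes this split moved with the scaling, from 359 higher and 600 lower to 517 higher and 321 lower at a common 75th percentile. *Cdk4*, the main partner of the D cyclins, was at 141, 105, 145, 119, 89.4 and 111 RPKM, a log2 difference of -0.41 (SE 0.12, limma adjusted p 0.387). The helicase subunit *Mcm6* differed by -0.42 (limma adjusted p 0.434) and the phosphatase *Cdc25a*, which activates CDKs, by -0.43 (limma adjusted p 0.478).

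For the word Dzip3KD, file 3 was set against file 1 and file 6 against file 4. By label, these compare Ring1B-KD 1 with control 1 and Dzip3-KD 2 with Ring1B-KD 2. The adjusted threshold was passed by 0 of all genes (0%) in limma, 752 genes had an unadjusted p under 0.05, and voom on the recovered reads called 4. *Dzip3* differed by -0.45 (SE 0.21, limma adjusted p 0.754). *Cdk1* alone among the 9 cell cycle genes had an unadjusted p under 0.05, against 6.52% of all genes.

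*Cdk1* was at 8.71 against 12.6 RPKM in the first set and at 8.88 against 12.1 RPKM in the second. The log2 difference was -0.45 (SE 0.15, limma adjusted p 0.754), with ratios of RPKM + 1 of 0.712 and 0.756. It stayed between -0.54 and -0.35 when libraries were left out in turn. The libraries with the word Ring1BKD, at 11.1 and 8.99 RPKM, lay between these levels. *Ccnd3* (-0.22), *Ccnb1* (-0.28) and *Ccne1* (-0.27) were also lower in both sets, which made 4 of 9 genes, against 29.5% of all genes, and their limma adjusted p were 0.775, 0.775 and 0.785. In the first and the second set the differences were -0.51 and -0.043 for *Ccnb1* and -0.47 and -0.072 for *Ccne1*. Without the library labelled Ring1B-KD 1 that of *Ccnb1* was -0.045, and without control 1 that of *Ccne1* was -0.041.

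*Ccnd1*, *Ccna2* and *Ccne2* did not keep a direction with the word Dzip3KD. *Ccnd1* was at 10.5 against 15.0 RPKM in the first set and at 21.1 against 17.3 RPKM in the second. *Ccna2* was at 49.0 against 46.3 RPKM and then at 33.9 against 38.8 RPKM. A single library stood on each side of these differences, and no test of the difference between the sets was made. Among the further genes, 5 of 138 had an unadjusted p under 0.05, against 6.52% of all genes: *Cdc25a* differed by -0.49, the licensing factor *Cdt1* by -0.47 and the inhibitor p21 (*Cdkn1a*) by 0.36, each with a limma adjusted p of 0.754.

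By the labels, 0 of all genes (0%) passed the adjusted threshold in limma for either knockdown against control, and voom called 0 as well. The unadjusted p was under 0.05 for 589 genes in the libraries labelled Ring1B-KD and for 1411 in those labelled Dzip3-KD. Among the 9 cell cycle genes, 0 had an unadjusted p under 0.05 for Ring1B-KD, against 5.1% of all genes. For Dzip3-KD it was *Ccnb1* alone, against 12.2% of all genes. By label, *Rnf2* differed by 0.15 for Ring1B-KD (SE 0.24, limma adjusted p 0.965), so it was not lower there. *Dzip3* differed by -0.47 for Dzip3-KD (SE 0.24, limma adjusted p 0.458) and by -0.46 for Ring1B-KD (SE 0.24, limma adjusted p 0.902).

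*Ccnb1* was at 32.5 ± 2.86 RPKM in the libraries labelled control, 24.7 ± 1.09 RPKM in those labelled Ring1B-KD and 23.7 ± 1.48 RPKM in those labelled Dzip3-KD (SD, n = 2 each). Both groups labelled as knockdowns lay below both libraries labelled control. The log2 difference was -0.38 (SE 0.17, limma adjusted p 0.902) for Ring1B-KD and -0.44 (SE 0.17, limma adjusted p 0.375) for Dzip3-KD, and both share the control libraries. *Ccna2* was at 46.9 ± 0.955, 43.9 ± 7.23 and 36.4 ± 3.48 RPKM, and *Cdk1* at 11.9 ± 1.08, 10.4 ± 2.37 and 8.93 ± 0.0791 RPKM (SD, n = 2 each). For Dzip3-KD the log2 difference was -0.36 for *Ccna2* and -0.37 for *Cdk1*, with limma adjusted p of 0.449 and 0.475. With the set as a block these differences were -0.031 and -0.80, neither past the threshold.

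For Ring1B-KD, the 9 genes ranged from the -0.38 of *Ccnb1* to 0.09 in *Cdkn1b*, and for Dzip3-KD from the -0.44 of *Ccnb1* to 0.28 in *Ccnd1*. For Ring1B-KD, 4 of the 138 further genes had an unadjusted p under 0.05, against 5.1% of all genes. The replication factor *Cdc45* (-0.72), the ubiquitin ligase subunit *Skp2* (-0.45) and *Cdkn3* (-0.70, from 1 to 5 reads) had the smallest p, each with a limma adjusted p of 0.902. For Dzip3-KD there were 18, against 12.2% of all genes, led by *Ccnf* (-0.60, limma adjusted p 0.302), the anaphase-promoting complex subunit *Anapc7* (-0.60, 0.319) and *Cdc25a* (-0.63, 0.319). Both libraries labelled Dzip3-KD are in the second set and both labelled control in the first, so that these groups are joined across the sets only through the libraries labelled Ring1B-KD, 1 in each set.

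The pattern of *Ccnd1*, the cell cycle gene tested with the largest SD of log2(RPKM + 1), was compared with those of 3065 genes at a mean of 10 RPKM or more. The most similar over the 6 libraries were *Dnajb6* (Pearson's r 0.990), *Dctpp1* (0.989), *Gnl3l* (0.987), *Celf1* (0.981) and *Ppm1b* (0.976). *Dctpp1* was at 69.4, 65.6 and 59.2 RPKM in files 1 to 3 and at 75.8, 64.5 and 84.9 RPKM in files 4 to 6, with the order of levels of *Ccnd1* except for files 2 and 5. Among the cell cycle genes, *Ccnd1* had an r of -0.84 with *Ccna2* and 0.75 with *Cdkn1b*, and *Ccna2* an r of -0.86 with *Cdkn1b*. *Cdk1* had an r of 0.81 with *Ccnd3* and 0.79 with *Ccnb1*, and *Ccnb1* an r of 0.75 with *Ccnd3*. These points share their libraries, depth and sets, and with 6 libraries they are given as a description.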

How the data were processed

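RNA from 6 cultures was sequenced, and the labels give the groups and replicate numbers. Per the study's methods, libraries were made with a stranded mRNA kit, run on a MiSeq and aligned to mm9. The authors counted reads unique to a gene and deposited them as RPKM, 1 list per library, described as biological duplicates. The annotation and software versions are not given in the sources used here. RPKM does not correct for RNA composition. Whole reads were recovered from the RPKM steps for 15462 genes (92.8%), with values under 0.001 treated as 0. PCR duplicates cannot be separated, so reads cover counting error only.

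limma 3.58.1 in R 4.3.3, with a variance trend, was fitted to log2(RPKM + 1) for genes averaging 0.5 RPKM or more, with Benjamini-Hochberg adjustment over all of them and a threshold of 0.05. A pseudocount of 1 understates changes of low genes. The fits were by label without covariates, and by file set and condition word together. Alternatives were a pseudocount of 0.1, no filter, scaling to the 75th percentile, voom, other blocks and leaving out each library. The code was tested on simulated data.

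The members and gene lists were chosen with earlier results of these data known. Named were all members, the 3 listed cell cycle genes with the smallest p per comparison, and the 5 genes most like the member with the largest SD of log2(RPKM + 1).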

Additional observations from a re-analysis of the deposited data

How the results depend on the processing

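Where a count moved, the cause was not tested. Between the file sets, 879 genes became 0 without the filter (3193 at an unadjusted p under 0.05), 1711 with voom, and 351 (without the library labelled Dzip3-KD 1) to 509 (without control 1) when libraries were left out in turn, each of which lowered it by more than 1.5 times. A lone library left in a group was then assumed to vary like the others. For the word Ring1BKD, 48 became 21 with a pseudocount of 0.1, 0 without the filter (1278 at an unadjusted p under 0.05), 80 with voom, 0 with no block for the set (421 unadjusted), and 3 (without Dzip3-KD 1) to 61 when libraries were left out. For Dzip3KD, 0 became 4 with voom and 0 to 4 when libraries were left out. For the label Dzip3-KD, 0 became 1 with the replicate block and 0 to 27 when libraries were left out (25 and 27 without Ring1B-KD 1 and 2). With the replicate block, the label Ring1B-KD gave 0.

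Same-numbered libraries did not deviate together from the means of their labels (r -0.036, -0.242 and 0.0444). The condition words differ within each label, so these values cannot decide whether the replicate numbers pair the libraries. Libraries of the same file set did deviate together from the means of their condition words (r 0.473, 0.434 and 0.418). The crossed pairing of control and Dzip3-KD, chosen after seeing the data, gave 0 genes (1464 unadjusted).

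Among the cell cycle genes, 1 call was gained, that of *Ccnd1* between the sets with voom, which called 1711 of 10633 genes. Some directions reversed. For the label Ring1B-KD, these were *Ccna2* at 0.061 with the set as a block, *Ccnd1* at 0.014 with 75th percentile scaling, and *Ccne1* at 0.00032 with a pseudocount of 0.1, 0.019 with scaling and 0.010 with voom. For Dzip3-KD they were *Ccnd1* at -0.38, *Ccne2* at 0.52 and *Cdk2* at 0.053 with the set as a block, and *Ccne1* at 0.049 and *Cdk2* at 0.031 with scaling.

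With libraries left out in turn, the ranges that crossed 0 for the label Ring1B-KD were -0.27 to 0.061 for *Ccna2*, -0.34 to 0.33 for *Ccnd1*, -0.14 to 0.046 for *Ccnd3*, -0.36 to 0.36 for *Ccne1*, -0.41 to 0.023 for *Cdk1*, -0.028 to 0.078 for *Cdk2* and -0.13 to 0.43 for *Rnf2*. For Dzip3-KD they were -0.037 to 0.60 for *Ccnd1*, -0.38 to 0.33 for *Ccne1*, -0.27 to 0.024 for *Ccne2* and -0.24 to 0.16 for *Cdk2*. Between the sets they were -0.050 to 0.21 for *Ccne1* and -0.13 to 0.0038 for *Cdk2*. For Ring1BKD they were -0.055 to 0.098 for *Ccna2*, -0.083 to 0.63 for *Ccne2* and -0.11 to 0.18 for *Cdkn1b*. For Dzip3KD they were -0.18 to 0.072 for *Ccna2*, -0.50 to 0.30 for *Ccnd1*, -0.21 to 0.50 for *Ccne2* and -0.0087 to 0.21 for *Cdk2*.

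*Ccnd2* (3 to 13 reads) and *Ccne2* (about 7 to 18) are limited by depth.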
